A study of Homo sapiens with 6 samples.

Results

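MDA-MB-468 is an established human breast cancer cell line of the basal-like, triple-negative kind, and the 3 arrays described here hold its transcriptome after treatment with a negative control GapmeR. They were chosen by their titles, which call them the control biological replicates, and they are 3 of the 6 arrays of the series. The other arrays hold cells given GapmeR#4 and were not used here. A GapmeR is a modified antisense oligonucleotide with which RNase H cleaves a chosen RNA, and the control one was delivered at 15 nM with the TransIT-BrCa reagent 48 h before the RNA was taken. The cells described are therefore transfected cells, not untouched ones, and no untreated sample is among the arrays used here. No allele was added to the line, whose genotype field reads control. The titles speak of biological replicates but not of separate cultures or days, so each standard deviation (SD) measures the spread between these samples, and their number limits its precision.

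Total RNA was hybridized to Affymetrix Human Gene 2.0 ST arrays, 1 sample per array, and each value is a deposited log2 signal of a transcript cluster, the gene-level probe set of this platform. The platform annotation used here gives a gene symbol to 16098 of the 53617 transcript clusters, or 14884 different symbols. The brightest transcript cluster of each symbol was taken, and 14105 symbols have 1 transcript cluster only. Array signals depend on the probes as well as on the transcript, so the order of genes given below is an order of signals and not of transcript numbers. A symbol can also have its main transcript cluster among those without a name. The median signal of all transcript clusters was 3.96, 3.98 and 3.98 on the 3 arrays.

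Breast epithelium has luminal cells, which line the duct and carry simple keratins and hormone receptors, and basal or myoepithelial cells, which carry stratified keratins and contractile proteins. Basal-like tumors usually lack the estrogen and progesterone receptors and amplified ERBB2, divide fast, and often hold EGFR and keratins of the basal layer. A cell line of this kind is thus read from its keratins, adhesion proteins, receptors and lineage transcription factors, and from the genes that stay silent.

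A gene was called above background where its signal passed, on every array, the 95th percentile of 35 measured genes that are restricted to other organs, such as the liver and the pancreas. These thresholds were 4.97, 5.08 and 4.97 on the log2 scale. Of the 14884 named genes, 7498 (50.4%) were above background on every array and 6619 (44.5%) were under it on every array, and the latter are called near background. The other 767 were above on some arrays and under on others. A signal near background is a level no higher than that of most genes of other organs, and not proof of absence. Mean signals ran from 0.85 for the dimmest gene to 12.33 for the brightest, with a median of 5.18.

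**Figure D1:**
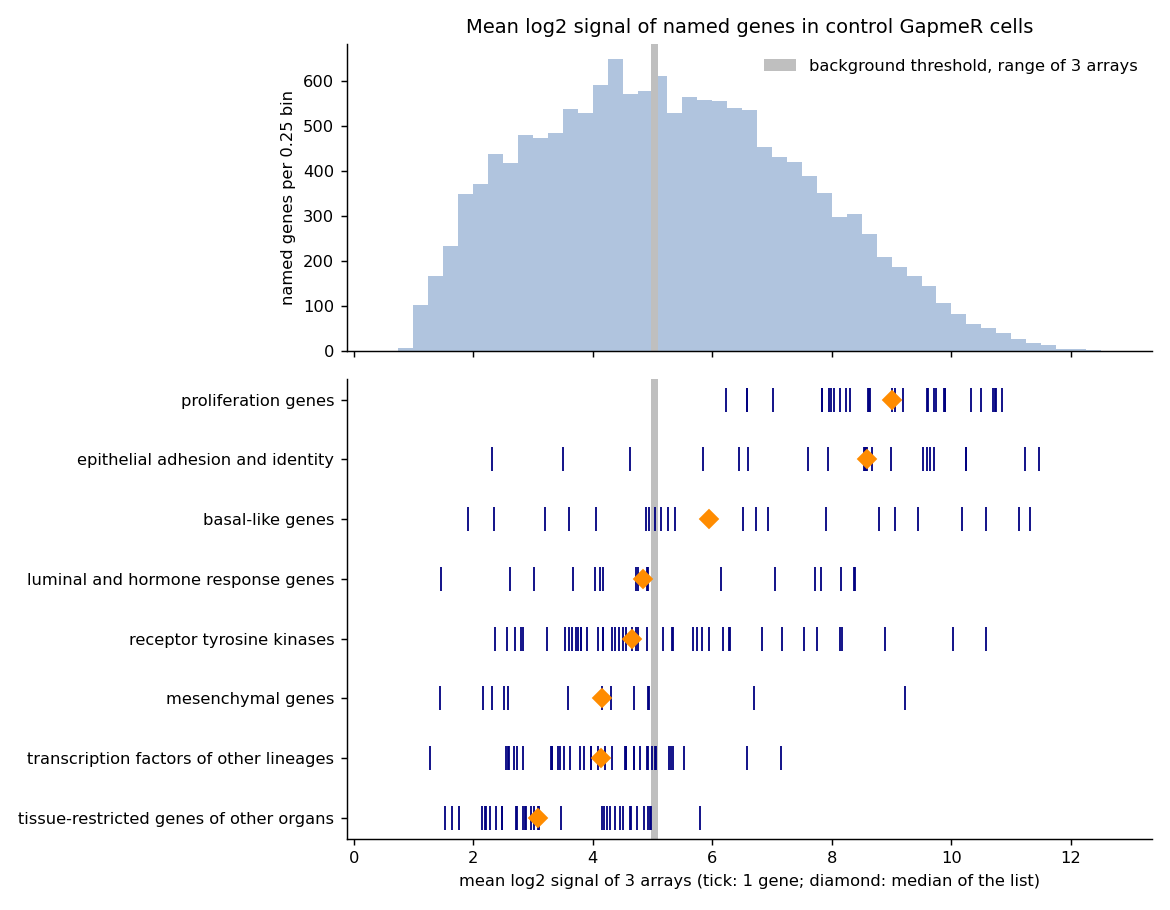
The upper panel counts named genes by mean log2 signal of the 3 control arrays, and the lower panel gives each measured gene of 8 lists as a tick with the list median as a diamond. The grey band is the range of the background thresholds (4.97 to 5.08). All 31 proliferation genes lie to its right, and the medians of mesenchymal genes (4.15) and of transcription factors of other lineages (4.14) lie to its left.

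Promoter sequences are shown for a few members of both kinds, because the bright and the dim genes differed in the motifs before their start sites. The stretches come from the RefSeq promoter table on build GRCh38.p14, run 5′ to 3′ on the strand of the gene, and end at the base before its start. In the first set, for the bright receptors EGFR and MET and the bright surface protein CD24, capitals mark a GC box (GGGCGG, or CCGCCC on the other strand). The stretches lie at chr7:55018917-55019016 (plus strand), chr7:116672096-116672195 (plus strand) and chr6:106975628-106975727 (minus strand). A GC box stands in the 100 bases before the start in 31.3% of all 35116 promoters of the table.
EGFR: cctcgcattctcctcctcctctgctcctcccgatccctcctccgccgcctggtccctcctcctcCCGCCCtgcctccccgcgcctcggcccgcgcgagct
MET: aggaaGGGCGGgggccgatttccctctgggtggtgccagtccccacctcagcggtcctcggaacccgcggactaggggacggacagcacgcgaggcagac
CD24: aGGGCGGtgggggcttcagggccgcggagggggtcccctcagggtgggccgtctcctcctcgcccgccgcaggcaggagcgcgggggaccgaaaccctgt

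In the second set, capitals mark the TATA box letters TATAAA on the strand of the gene between 45 and 16 bases before the start, which 2.38% of all promoters in the table hold. S100A7 and KRT10, at chr1:153460652-153460751 (minus strand) and chr17:40822615-40822714 (minus strand), were above background. KRTAP12-1 and KRTAP4-7, at chr21:44682164-44682263 (minus strand) and chr17:41084050-41084149 (plus strand), encode keratin-associated proteins of the hair shaft and were near background. They are the dimmest 2 of their class with this motif, and the other 5 genes shown in both sets were chosen after their values had been seen.
S100A7: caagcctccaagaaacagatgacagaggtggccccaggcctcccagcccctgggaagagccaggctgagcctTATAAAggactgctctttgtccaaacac
KRT10: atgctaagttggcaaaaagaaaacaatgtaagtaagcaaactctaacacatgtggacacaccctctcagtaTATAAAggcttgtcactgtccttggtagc
KRTAP12-1: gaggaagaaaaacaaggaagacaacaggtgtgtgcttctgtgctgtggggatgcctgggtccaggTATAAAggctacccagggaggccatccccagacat
KRTAP4-7: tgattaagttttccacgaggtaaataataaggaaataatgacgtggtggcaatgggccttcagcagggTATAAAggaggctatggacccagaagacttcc

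The brightest named gene was RPL12, a protein of the large ribosomal subunit, with log2 signals of 12.37, 12.37 and 12.24. It was followed by CSE1L, a nuclear export receptor that recycles importin alpha, with 12.08, 12.16 and 12.27, and by SCD, the desaturase that makes monounsaturated fatty acids, with 12.14, 12.19 and 12.08. The arrays of CSE1L overlapped with those of both others, so its place between them is not beyond the spread, while all arrays of RPL12 were above all those of SCD. ANXA2P2 (12.10) and HNRNPA1P10 (11.81) are pseudogenes of ANXA2 and HNRNPA1, and their signal cannot be told apart here from that of the parent gene. MGP, the matrix Gla protein, a secreted inhibitor of calcification, had 12.02, 12.02 and 12.04.

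The 30 brightest named genes had means between 11.35 and 12.33 and held several groups. Besides RPL12, the ribosomal protein genes RPS27 (12.00), RPL41 (11.71), RPL10 (11.57) and RPS28 (11.44) were among them, with MRPS21 (11.65) of the mitochondrial ribosome. Whether these transcript clusters read the genes themselves or similar sequences elsewhere in the genome was not analysed here. RMRP, the RNA of the RNase MRP ribonucleoprotein, had 12.15, 11.75 and 11.87, and the nuclear long noncoding RNA MALAT1 had 11.55, 11.58 and 11.68. The noncoding LINC00987 had 11.71 on average. The endoplasmic reticulum gave the chaperones CALR (11.73) and CANX (11.49), DAD1 (11.46), a subunit of the oligosaccharyltransferase, and SRP9 (11.35) of the signal recognition particle. LAPTM4A (11.76), VPS35 (11.56), a retromer subunit, and TM9SF2 (11.54) belong to endosomes and other vesicles. YBX1 (11.36) and CAPRIN1 (11.51) bind RNA, SNRPD3 (11.57) is a core protein of the spliceosome, MTCH2 (11.59) and TOMM6 (11.40) sit in the outer mitochondrial membrane, and TXN (11.40) is thioredoxin. HPS3 (11.65), which helps to form lysosome-related organelles, and GLYATL2 (11.52), a glycine acyltransferase, complete the 30 together with EPCAM. EPCAM, the epithelial cell adhesion molecule, was the one member of the epithelial list in this group, at 11.40, 11.46 and 11.56.

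The epithelial list was read beside the label of an epithelial cancer line. It was chosen with earlier results of these data known, so it is no independent check of that label. Of 22 measured genes of epithelial adhesion and identity (32 in the list), 19 (86.4%) were above background, beside 50.4% of all named genes. In the top decile of all named genes were 14 of them. DSP, the desmosomal plakin that ties keratins to the membrane, had 11.25, 11.23 and 11.21. ESRP1, an epithelial splicing regulator, had a mean of 10.25, and its paralog ESRP2 had 7.61. Among desmosomal cadherins DSC2 (10.24), DSG2 (8.98) and DSC3 (8.58) were above background, while DSG3, a cadherin of stratified epithelia, was near background at 2.31. The plakophilins showed the same kind of range, with PKP2 at 9.70, PKP3 at 5.85 and PKP1, the one of stratified epithelia, near background at 3.50. Tight junction genes were above background throughout the list, with TJP1 (9.64), OCLN (9.60), CLDN7 (9.52), CLDN1 (8.59), CLDN3 (8.54), TJP3 (7.94) and CLDN4 (6.45). The matriptase gene ST14 had 8.55 and JUP, plakoglobin, 8.68. PPL (4.63), which encodes periplakin, was the third gene near background.

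Keratins form the intermediate filaments of epithelia as pairs of a type I and a type II chain. Of 47 measured keratin genes, 13 (27.7%) were above background, beside 50.4% of all named genes, and 33 were near it. The brightest was KRT18, the type I keratin of simple epithelia, with 9.97, 10.03 and 9.74, and KRT19, another simple keratin, had 10.04, 9.92 and 9.61. These arrays overlapped, so KRT18 and KRT19 were not separated. KRT18 has 2 transcript clusters, and averaged over both it had 8.17, below KRT19, KRT23 and KRT10. Whether the brighter one, used here, reads KRT18 itself or a similar sequence elsewhere in the genome was not analysed. KRT23 (9.82, 9.81 and 9.67) and KRT10 (9.13, 9.05 and 8.97), a keratin of differentiating epidermis, came next, and all 3 arrays of KRT10 were below all those of KRT23. The basal keratin KRT5 had 7.12, 7.09 and 7.01, and its usual partner KRT14 had 5.60, 5.43 and 5.63. KRT7, a simple keratin of ducts, had 7.12, 6.74 and 6.82, overlapping with KRT5. KRT8, the usual partner of KRT18, had 6.05, 5.80 and 5.83.

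In the list of 5 simple epithelial keratins, KRT20 of the intestine (4.44) was the one near background. Of 5 measured basal and stratified keratins (8 in the list), KRT5, KRT15 (5.76), KRT14 and KRT16 (5.22) were above background and KRT6C (1.75) was near it. Each of these lists had 80% of its measured genes above background, beside 50.4% of all named genes. The margin of KRT14 and KRT16 over the thresholds was small. KRT80 (5.89 to 6.11 over the arrays), KRT4 (5.21) and KRT85 (5.16) were the remaining keratins above background. KRT6A, KRT6B and KRT17 have no symbol in the annotation used here and were not analysed here. The dimmest keratins were KRT76 (1.77), KRT6C and KRT26 (1.70).

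**Figure D2:**
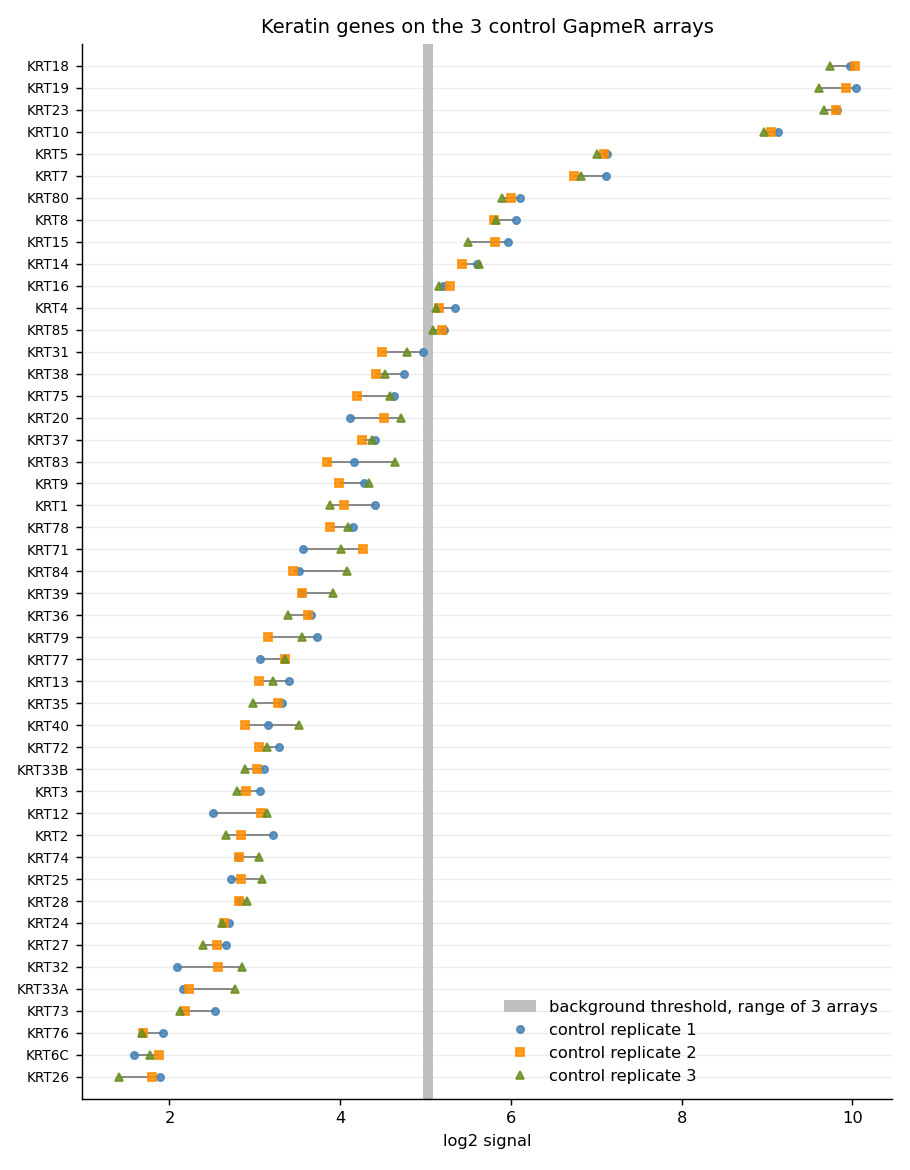
Log2 signal of all 47 measured keratin genes on each of the 3 control arrays, ordered by mean, with a line from the lowest to the highest array and the background thresholds as a grey band. KRT18, KRT19, KRT23 and KRT10 lie between 8.97 and 10.04, and 33 genes lie left of the band on every array.

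Of 22 measured basal-like genes (37 in the list), 13 (59.1%) were above background, beside 50.4% of all named genes, 6 were near it and 7 were in the top decile. KLK6, a kallikrein protease, had 11.33, 11.31 and 11.29. VGLL1, a cofactor of TEAD transcription factors, had 11.20, 11.21 and 11.00. KLK5 (10.17, SD 0.37) was the least even of the bright ones, with 10.57, 10.12 and 9.83. MSN (9.45) encodes moesin, which links actin to the membrane, PROM1 (9.06) encodes CD133, and SFRP1 (7.90) a secreted WNT antagonist. The kallikrein genes KLK8 (6.93) and KLK7 (6.72) were also above background, as was UGT8 (6.52) of galactolipid synthesis. KIT (3.60), BCL11A (3.19), ROPN1B (2.35) and ROPN1 (1.92), all often named for basal-like tumors, were near background.

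Of 18 measured luminal and hormone response genes, 7 (38.9%) were above background, under the 50.4% of all named genes, and 8 were near it. Above background were the transcription factors SPDEF (8.61, 8.40 and 8.14), XBP1 (8.16), GATA3 (7.84, 7.75 and 7.87) and FOXA1 (7.13, 7.04 and 6.99), together with ANXA9 (8.36), STC2 (7.72) and MLPH (6.15). ESR1, the estrogen receptor alpha, had 3.96, 4.16 and 4.22, and PGR, the progesterone receptor, had 2.61, 2.62 and 2.61, and both were near background. Among the other members, GREB1 (3.67) and AGR2 (4.17) were near background, and TFF1 (4.76) and TFF3 (4.90) were above on some arrays only. ERBB2, the third gene that defines triple-negative disease, has no symbol in the annotation used here and was not analysed here.

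The myoepithelial list of 12 had 5 of 8 measured genes (62.5%) above background, beside 50.4% of all named genes. TP63, ACTA2, MYH11 and CNN1 have no symbol in the annotation used here. Of the 5, KRT5 and KRT14 also stand in the list of basal and stratified keratins. MME, a membrane metalloprotease also called CD10, was bright at 10.38, 10.37 and 10.44. The contractile genes CALD1 (5.58) and TPM2 (5.54) were not far above the thresholds. TAGLN (4.95) was above background on replicate 2 only, and MYLK (4.37) and OXTR (4.85) were near background. Of 7 measured milk and secretory genes, 2 (28.6%) were above background, under the 50.4% of all named genes. These 2 were ELF5 (8.34), a regulator of the secretory lineage, and PRLR (7.03), the prolactin receptor. The caseins CSN3 (3.13), CSN1S1 (2.45) and CSN2 (1.77) were near background. Beside 50.4% of all named genes, 2 of 13 measured mesenchymal genes (25 in the list) were above background (15.4%). They were FN1, fibronectin, with 9.45, 9.37 and 8.87, and VIM, vimentin, with 6.86, 6.73 and 6.52, and both were lowest on replicate 3. The transcription factors of epithelial to mesenchymal transition SNAI2 (4.30), ZEB1 (2.58), TWIST1 (2.52) and ZEB2 (2.32) were near background, and SNAI1 (4.69) was above it on 1 array.

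Receptor tyrosine kinases carry growth factor signals from the membrane. Of 45 measured genes of this family (55 in the list), 19 (42.2%) were above background and 23 were near it, beside 50.4% and 44.5% of all named genes. EGFR, the receptor of epidermal growth factor, had 10.66, 10.62 and 10.46, and MET, the receptor of hepatocyte growth factor, had 9.90, 10.07 and 10.12. All arrays of EGFR were above all those of MET, and all arrays of MET were above all those of RYK (8.83, 8.88 and 8.93), a WNT coreceptor. The collagen receptor DDR1 (8.17), the orphan-type receptor ROR1 (8.13) and the ephrin receptor EPHB4 (7.75) followed, and their arrays overlapped with each other. KDR, a receptor of vascular endothelial growth factor best known from endothelium, had 7.60, 7.57 and 7.43. ERBB3, the partner of EGFR and ERBB2, had 7.21, 7.24 and 7.03, and ERBB4 was near background at 2.80. INSR (6.17), MERTK (6.28), PTK7 (6.83), AXL (5.34) and MST1R (5.32) were above background. IGF1R (4.75) was above it on 1 array, and the fibroblast growth factor receptors FGFR1 (4.72), FGFR2 (4.50) and FGFR3 (4.43) were near background. Among ephrin receptors EPHB3, EPHA4, EPHA2 and EPHA1 lay between 5.67 and 6.30, and EPHA3 was the dimmest of the family at 2.36.

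**Figure D3:**
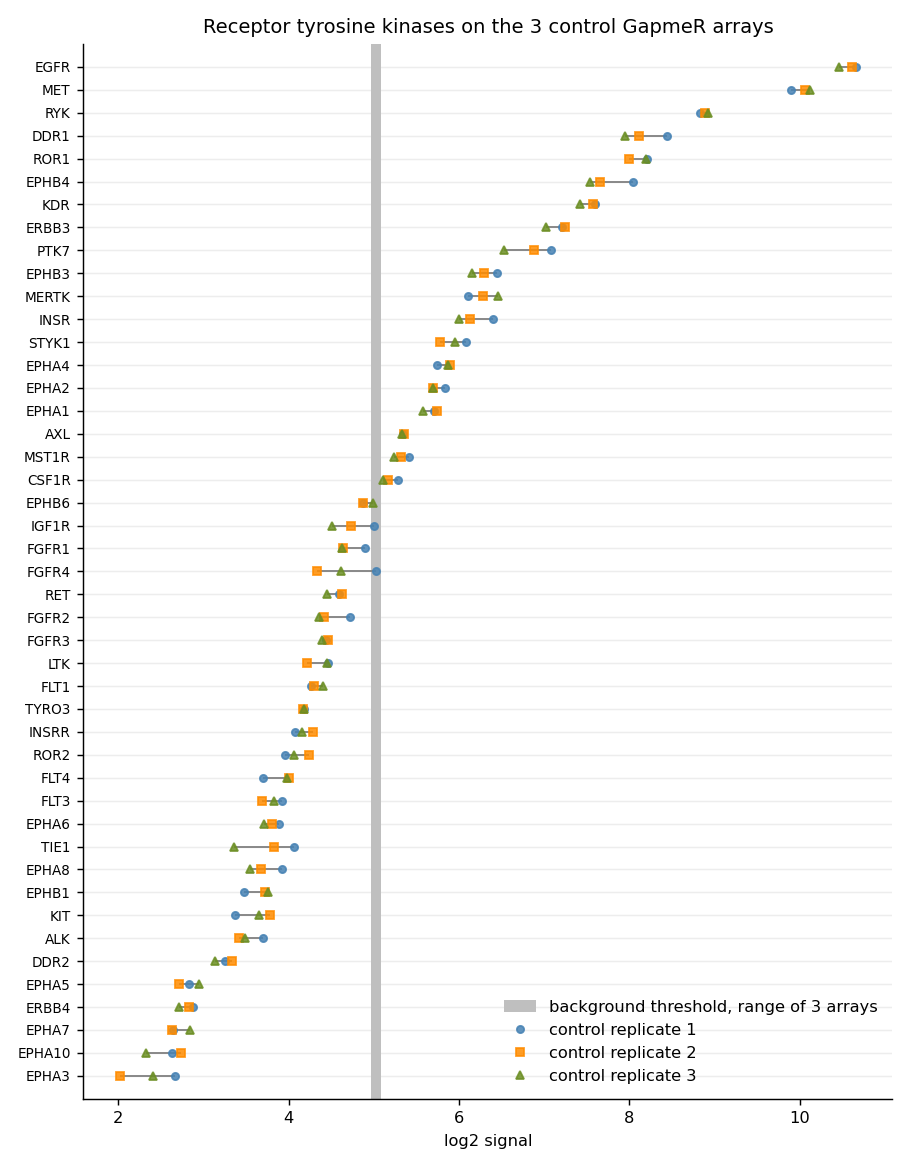
Log2 signal of 45 receptor tyrosine kinase genes on each of the 3 control arrays, ordered by mean, with a line from the lowest to the highest array and the background thresholds as a grey band. EGFR (mean 10.58) and MET (10.03) stand to the right of the other receptors, of which RYK (8.88) is the next.

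Ligands of the EGFR family had lower signals than the receptor. Of 9 measured, 2 (22.2%) were above background, beside 50.4% of all named genes. These 2 were EREG (6.43, 6.59 and 6.61), which encodes epiregulin, and BTC (6.22), betacellulin. EGF (4.66), HBEGF (4.33) and NRG1 (3.18) were near background. Nuclear receptors bind steroids, retinoids and other lipids inside the cell, and the annotation names 11 of the 48 in the list. PPARD (8.60), PPARG (6.71) and PPARA (6.03), which sense fatty acids, and ESRRA (5.75) were above background, and the other 7, ESR1 and PGR among them, were near it. The 4 above background were 36.4% of those measured, beside 50.4% of all named genes.

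Of 21 measured receptors of the TGF-beta, WNT, Notch and Hedgehog pathways, 11 (52.4%) were above background, a share close to the 50.4% of all named genes. FZD6, a WNT receptor, had 10.47, 10.54 and 10.61, and no other Frizzled gene passed 7.70, the mean of FZD3. LGR4 (8.82), LRP6 (8.53) and LRP5 (7.55) are coreceptors of the same pathway, and the stem cell marker LGR5 was near background at 2.55. Among Notch receptors NOTCH2 (8.15) had the highest signal, then NOTCH3 (7.12) and NOTCH1 (6.15), with NOTCH4 (4.57) near background. Of 19 cytokine and innate immune receptors, 12 (63.2%) were above background, beside 50.4% of all named genes, led by OSMR (8.32), the oncostatin M receptor, and IFNGR1 (8.07), a chain of the interferon gamma receptor. IL6R was near background at 4.77, and among Toll-like receptors TLR5 (7.13), TLR6 (6.47), TLR1 (6.32) and TLR3 (5.78) were above it.

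Transcription factors of epithelia and breast were above background in 21 of 33 measured cases (63.6%, beside 50.4% of all named genes), and 8 of the 33 were in the top decile. HMGA1, an architectural chromatin protein, had 10.09, 9.96 and 10.11. The epithelial factors EHF (9.46), GRHL1 (9.43), GRHL2 (8.16), KLF5 (8.50) and TFAP2C (8.78) were bright, as were SOX9 (8.86, 8.80 and 8.69) and SOX4 (8.60). SOX10 (5.38) and EN1 (5.13), both markers of basal-like tumors, passed the thresholds narrowly. RUNX1 (4.44), RUNX3 (4.51), HMGA2 (4.54) and TFAP2B (4.09) were near background. Of 58 signal-regulated factors, 47 (81.0%) were above background, beside 50.4% of all named genes. STAT3, the effector of cytokine receptors, had 10.02, 10.06 and 9.94, and ATF4 of the stress response had 9.70. RELA (8.73), YAP1 (8.61) and SRF (8.53) were bright, while MYC had 6.69, 6.71 and 6.62. Of the AP-1 subunits JUNB (7.72), JUND (7.62) and FOSL2 (6.67) had higher signals than JUN (5.90) and FOS (5.07), and FOS passed the threshold on some arrays only.

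Transcription factors of other lineages gave the opposite picture. Of 38 measured, 6 (15.8%) were above background and 28 were near it, beside 50.4% and 44.5% of all named genes. None of the 38 was in the top decile. NANOG (1.28), MYF5 (2.59), IKZF1 (2.61), PAX6 (2.69), SOX2 (3.32) and POU5F1 (4.56), which mark pluripotent, muscle, blood and neural cells, were near background. PAX7, a factor of muscle stem cells, was the exception with 7.16, 7.06 and 7.22, and GATA6, a factor of endoderm, had 6.54, 6.74 and 6.48. FOXP3 (5.53), GATA1 (5.34), OLIG1 (5.30) and CDX1 (5.27) were the others above background. With the 99th percentile of the genes of other organs as background, 2 and not 6 of the list were above it.

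MDA-MB-468 is known to carry deletions of RB1 and SMAD4 and an amplified EGFR, and each of these genes has a transcript cluster with a symbol. RB1, the retinoblastoma tumor suppressor, had log2 signals of 1.64, 1.66 and 1.75, in the lowest 2.95% of named genes. SMAD4, the common mediator of TGF-beta signals, had 3.20, 2.97 and 2.90. EGFR, at the 99.1th percentile, is given above.

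The named genes on either side of these 3 were taken in chromosome order, and were chosen for their place, after signals had been seen. Around RB1, 6 neighbouring named genes in a row were near background, from RB1-DT (4.71) to CYSLTR2 (1.92). Between them lie RB1 itself, LPAR6 (2.02), which sits inside an RB1 intron, RCBTB2 (3.83) and LINC00462 (1.59). The genes that flank this run were bright, with ITM2B at 10.57 on one side and FNDC3A at 8.81 on the other. Of the 6619 genes near background, 1325 lie in runs at least this long, and 39.4% in runs of at least 4. Beside SMAD4, ELAC1 (3.61) and MRO (3.89) were near background, while MEX3C (8.73) on the other side was above it. After MEX3C came LINC01630 (3.25) and DCC (3.04), near background, and MBD2 (10.32), a methyl-CpG binding protein gene, above it. Beside EGFR, LANCL2 had 10.40, 10.40 and 10.43, and EGFR-AS1 (4.06), an antisense transcript, was near background between them. On the other side VSTM2A-OT1 (1.88), VSTM2A (3.04) and 4 further genes were near background. Next to LANCL2, FKBP9P1 (2.85) and SEPTIN14 (2.18) were near background, and then ZNF713 (6.66) and the 5 genes from MRPS17 (8.69) to CHCHD2 (10.82) were above it, among them PSPH (9.74) of serine synthesis. Copy number was not measured on these arrays, and its part in these signals was not tested.

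**Figure D4:**
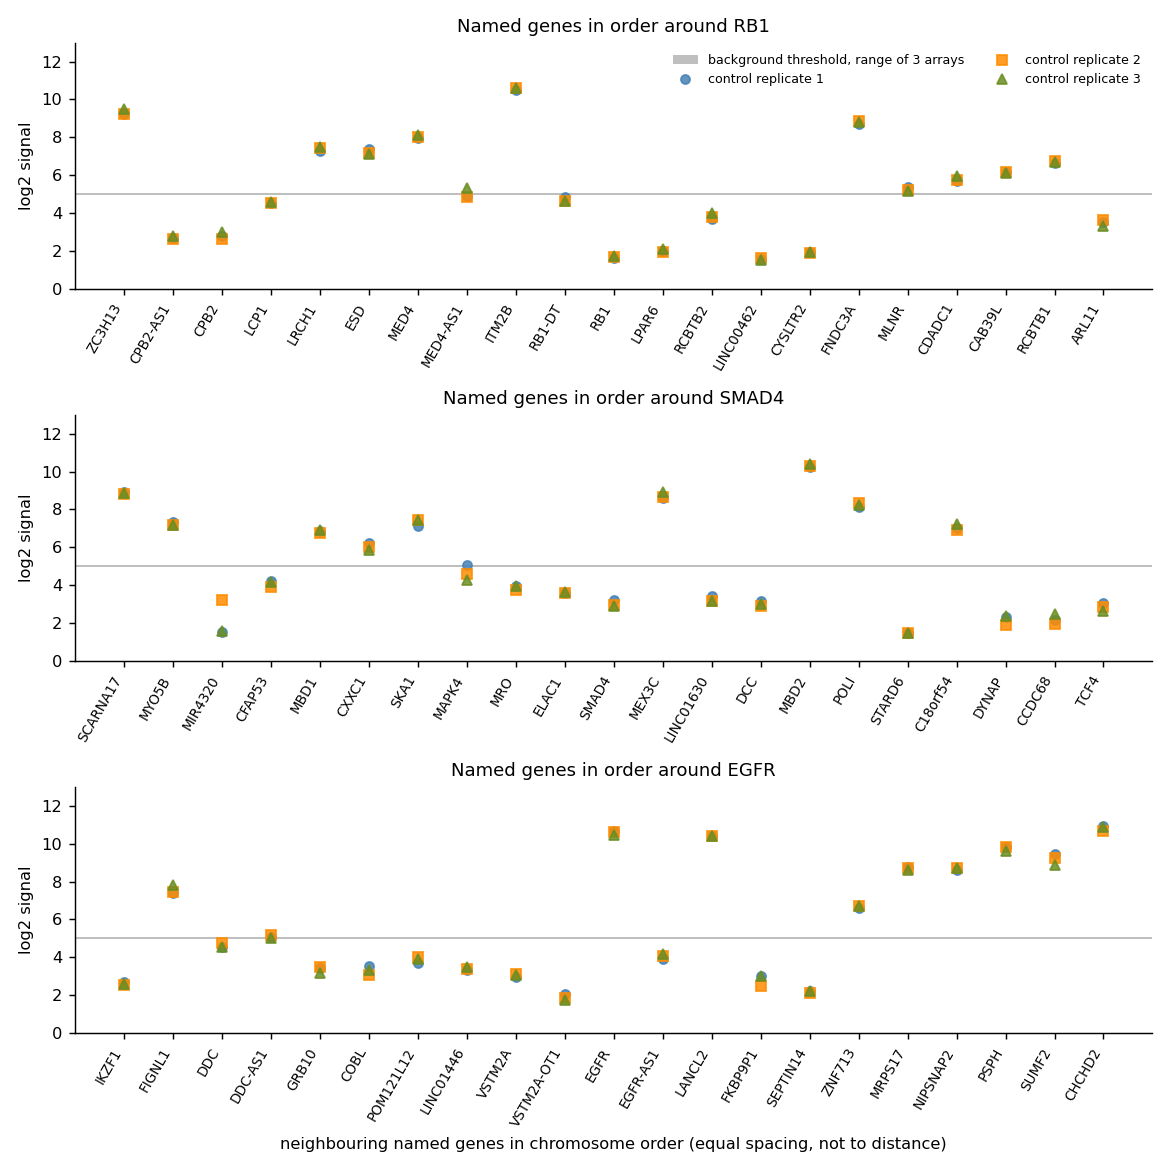
Log2 signal on each of the 3 control arrays for RB1, SMAD4 and EGFR with 10 named genes on each side, in chromosome order at equal spacing, with the background thresholds as a grey band. RB1 (mean 1.68) lies in a run of 6 genes under the band, SMAD4 (3.02) in a run of 3, and EGFR (10.58) stands between dim genes on one side and LANCL2 (10.41) on the other.

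The RB1 relatives RBL2 (9.52) and RBL1 (8.59) were bright, as were CDK4 (8.69), CCNE1 (8.47) and CCNE2 (8.32), the kinase and the cyclins that act on this protein family. CCND1, cyclin D1, had 6.95 with an SD of 0.00196, and CCND2 was near background at 3.35. CDKN2A, the inhibitor of CDK4, had 6.07, 5.79 and 5.87. SMAD2 (9.63) was bright and SMAD3 (4.49) was near background.

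All 31 measured proliferation genes were above background, beside 50.4% of all named genes, and 19 of the 31 were in the top decile. The list median was 9.01, beside 5.18 over all named genes. TYMS, thymidylate synthase, had 10.85, 10.84 and 10.84. TOP2A (10.67, 10.77 and 10.78), a topoisomerase of mitosis, PCNA (10.73), the sliding clamp of replication, and MKI67 (10.61, 10.66 and 10.80), the Ki-67 antigen, were close to it. Cyclin and kinase genes of mitosis followed, with CCNA2 (10.50), PLK1 (10.33) and CDK1 (9.71). The helicase subunits of replication origins ranged from MCM3 (9.60) to MCM2 (6.22), which was the dimmest of the list.

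All 6 measured stem cell and aldehyde dehydrogenase genes (23 in the list) were above background, beside 50.4% of all named genes. CD24 had 11.23, 11.20 and 11.21 and CD44 had 10.15, 10.27 and 10.20. ALDH2, the mitochondrial aldehyde dehydrogenase, had 7.20. The other aldehyde dehydrogenase genes of the list, the ALDH1A genes among them, have no symbol in the annotation used here. All 9 measured genes of retinoic acid handling and response (22 in the list) were above background as well, RARRES2 (5.18) narrowly. The RAR, RXR and CYP26 genes of this list have no symbol in the annotation used here. NRIP1, a corepressor of nuclear receptors, had 10.17, CRABP2, the carrier that brings retinoic acid to the nucleus, had 9.59, 9.51 and 9.31, and RARRES1, a retinoic acid responder, had 9.26, 9.46 and 9.24. NRAD1, the long noncoding RNA that the study targeted in the other arrays, was near background with 3.43, 3.46 and 4.01, and replicate 3 was the highest. The paper names MDA-MB-468 among the basal-like lines that express NRAD1, and measured it in these cells by quantitative PCR. The low array signal therefore need not show the level of this RNA. Of 50 long noncoding RNAs that the study lists for triple-negative tumors, 15 were measured. Above background were 2 of these 15, ST8SIA6-AS1 (7.91, 8.03 and 8.07) and LINC01133 (mean 7.87), and 12 were near it. A low share was common for such RNAs here, as 49 of 458 LINC genes (10.7%) were above background, beside 50.4% of all named genes. The count of 2 of 15 therefore does not set the listed RNAs apart.

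Markers of other cell types were looked for because a culture should hold none. The annotation names 9 of 19 immune, 7 of 10 endothelial and 3 of 10 fibroblast markers, so the look was partial. Of 9 immune markers, 3 (33.3%) were above background, beside 50.4% of all named genes. These 3 were CD68 (6.94), a lysosomal protein, CD8A (5.23) and CSF1R (5.18), of which CD8A and CSF1R passed narrowly. CD14 (3.70) and CD4 (3.94) were near background. Of 7 endothelial markers KDR alone (14.3%) was above background on every array, and PECAM1 (3.44), VWF (3.82) and EMCN (2.23) were near it. The fibroblast genes DCN (1.44) and LUM (2.17) were near background, and THY1 (4.93) was above on some arrays. Of the genes of other organs, which set the thresholds, 1 of 35, LHB (5.79), passed on every array, and albumin, ALB, had 2.89. The reference genes of quantitative PCR had even values, with B2M at 9.94, 9.94 and 9.82 and ARF1 at 9.43, 9.38 and 9.30. GAPDH, a glycolytic enzyme abundant in most cells, was listed at 5.90 only, which is an example of a symbol whose transcript cluster need not show the level of the gene.

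Classes of genes read from their symbols differed widely in how many members passed the thresholds. Of 73 mitochondrial ribosomal protein genes, 71 (97.3%) were above background, and of 52 cytosolic ones 46 (88.5%) were, beside 50.4% of all named genes. The median signals were 7.45 and 7.10. RPL10L (2.70), the testis copy of RPL10, was the dimmest cytosolic one. Among 25 respiratory chain genes 18 (72%) were above background, from COX8A (11.23) and COX6A1 (11.03) down, and the testis forms COX8C (1.96) and COX6B2 (2.75) were near it. Translation factors were above background in 29 of 34 cases (85.3%), led by EEF2 (11.21) and EEF1G (10.97). For bright members such as COX6A1 and EEF1G, signal from similar sequences elsewhere in the genome was not separated. Of 471 zinc finger genes, 333 (70.7%) were above background, with a median of 5.78. ZNF217 (10.02), a candidate oncogene of breast cancer, was the brightest of them.

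Other classes were mostly near background, where all named genes had 44.5% near it and 50.4% above it. Of 84 keratin-associated protein genes, 74 were near background, and the median was 2.72. KRTAP5-7 (8.26) and KRTAP10-6 (6.55) were the brightest of the 9 (10.7%) above background. Of 1098 microRNA precursors, 856 were near background and 178 (16.2%) were above it. Of the 10 dimmest named genes, 8 were microRNA precursors, MIR548F1 (0.85) the dimmest. The array reads the precursor locus and not the mature microRNA, and a probe set in an expressed host gene can carry the host signal. Of 458 LINC genes, 49 (10.7%) were above background, led by LINC00987, LINC01347 (10.10) and LINC01000 (9.94), and 395 were near it.

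Promoter motifs followed the signal. RefSeq promoters of 250 bases before and 50 after the start matched 10749 named genes, and where a gene has several entries its share is their mean. A GC box on either strand before the start was held by 68.5% of promoters of genes above background and by 40.6% of those near it. CpG pairs numbered 26.1 and 15.2 per promoter on average. TATAAA 45 to 16 bases before the start was held by 1.45% and 5.85%. Across deciles of the signal, from the dimmest to the brightest, the share with a GC box ran from 23.7% to 69.2% and that with TATAAA from 9.26% to 1.90%, with its lowest value, 0.858%, in the ninth. The CCAAT box (CCAAT or ATTGG before the start) lay between 30.7% and 37.4% in every decile. GC boxes rose mainly over the dimmer deciles and lay between 66.2% and 70.0% from the sixth on.

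Some lists stood away from these averages. Of 32 keratin genes with a promoter, 44.5% held TATAAA and 12.5% a GC box, in bright KRT10 as in dim members, and of 70 keratin-associated protein genes 45.7% and 1.43% did. Promoters of 26 proliferation genes held a CCAAT box in 82.1%, beside 33.9% over all named genes with a promoter, and TATAAA in 0%. These shares were not tested, a match of letters is not a bound site, and the genes of a list can share a sequence by descent.

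The arrays repeated each other closely. Pearson correlations across named genes were 0.994 for replicates 1 and 2, 0.992 for replicates 1 and 3, and 0.994 for replicates 2 and 3, and genes are not independent replicates. The median SD of a gene was 0.130 on the log2 scale over all named genes and 0.113 over those above background. It was 0.154 in the third decile of signal and fell to 0.0964 in the brightest decile. Between 34 and 41 genes differed by more than 1 between a pair of arrays. Replicate 3 was the farthest from the mean in 5735 genes, replicate 1 in 5627 and replicate 2 in 3522, so replicate 2 more often lay between the others.

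**Figure D5:**
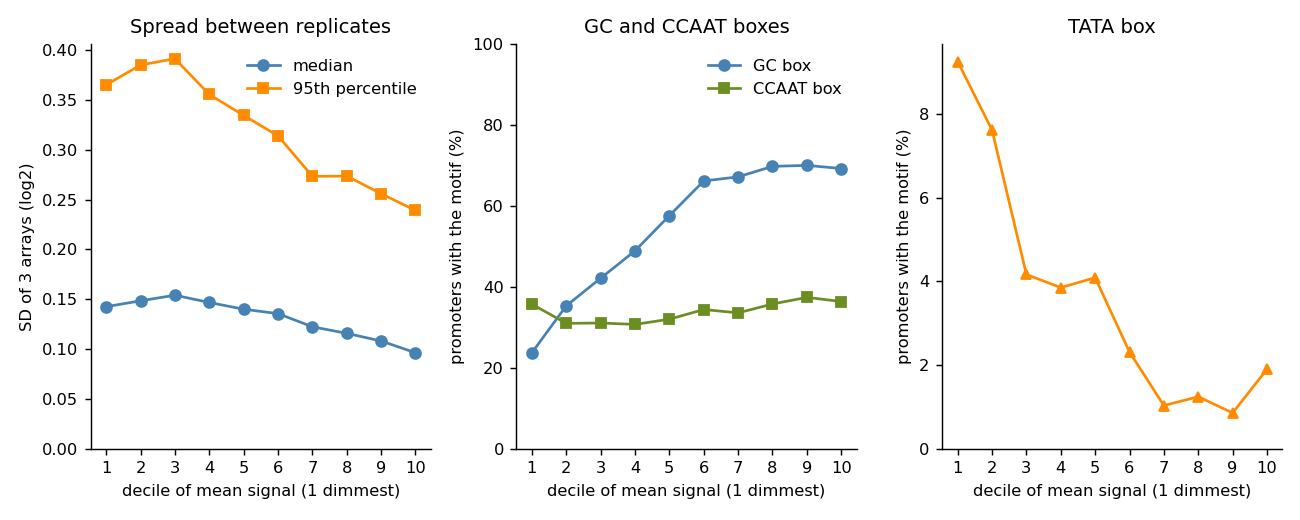
Named genes in deciles of mean signal, from 1 (dimmest) to 10 (brightest). The left panel gives the median and the 95th percentile of the SD of the 3 arrays, the middle panel the share of promoters with a GC or a CCAAT box, and the right panel the share with TATAAA. The median SD falls to 0.0964 in the brightest decile, GC boxes rise from 23.7% to 69.2%, and TATAAA falls from 9.26% to 1.90%.

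Above background, 5 genes had an SD over 0.5. SCARNA3, a guide RNA of Cajal bodies, had 5.37, 6.82 and 5.56, with replicate 2 apart from the others. DDIT4, which restrains mTOR under stress, had 9.05, 8.71 and 7.79, with replicate 3 lowest. MAP1LC3B2 (5.17, 5.96 and 6.13), an autophagy gene with a near-identical paralog, was lowest on replicate 1. ZNF257 had 6.28, 6.53 and 7.26, and GGT3P, a pseudogene, had 9.44, 8.80 and 8.45. Of the 20 genes with the largest SD, 4 were zinc finger genes, ZNF257, ZNF107, ZNF718 and ZNF708, a class that makes up 4.44% of the genes above background, and 3 of these 4 were highest on replicate 3.

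The median deviation of the 15 S100A genes from their own means was 0.17 on replicate 1, 0.04 on replicate 2 and -0.12 on replicate 3, where that of all named genes was 0.01, 0.00 and 0.00. On replicate 1, 13 of the 15 were over their own mean, and S100A2 and S100A3 were not. Of all 14884 named genes, 7738 were over their own mean on replicate 1. The 9 metallothioneins, which bind zinc and copper, deviated by 0.19, -0.08 and -0.10, with 6 of 9 over their mean on replicate 1. These shifts were not tested and are close to the median SD of each class, 0.18 and 0.23. At the other end, SPOP, an adaptor of a ubiquitin ligase, had an SD of 0.00193, CCND1 one of 0.00196 and MRPS10 one of 0.00238. With 3 arrays an SD is itself imprecise, so the order of these genes says little about how steady each one is.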

How the data were processed

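The 3 control GapmeR samples have 1 array each. From the scans the authors made and deposited log2 signals of 53617 transcript clusters, and the submitters' processing notes name Affymetrix Expression Console. Version, normalization and genome build were not given in the sources used here. An unknown between-array normalization can narrow the spread. The signals were used as deposited. Groups came from the labels of the submitters.

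Gene symbols came from the platform annotation (14884 symbols, each matched to 1 gene, 37519 transcript clusters without one), and the brightest transcript cluster was taken for each. Means and SDs were computed over 3 arrays with Python 3.11.15 (pandas 2.3.3, numpy 2.4.6, matplotlib 3.10.9), and no test was made, since no groups were compared. The background was to be taken from olfactory and taste receptor genes, but the annotation names 1 and 0 of these, so the 95th percentile of the genes restricted to other organs (35 of 60 measured), the second choice, was used. Promoters and gene order came from RefSeq tables of assembly GRCh38.p14, which were used for names, motifs and neighbours.

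The members and the 26 gene lists were chosen with earlier results of these data known. Named genes are members of the lists, the 30 brightest, the 20 with the largest and the 10 with the smallest SD above background, the 10 dimmest, the 3 brightest and 3 dimmest of each class of symbols, and NRAD1, and not all of them are named. Genes outside this rule, such as the neighbours of RB1, SMAD4 and EGFR, were chosen after their values were seen. Classes with under 5 members were left out. The methods were tested on simulated arrays with known means and spread. Alternatives were other background levels, quantile normalization, centring on the median, averaging a symbol's transcript clusters, the median of the arrays, 0.5 times the range, and leaving out each array in turn.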

Additional observations from a re-analysis of the deposited data

Results flagged for a closer look

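The report rests on transcript clusters with a gene symbol. Among the 37519 without one, 8991 (24.0%) were above the background thresholds on all 3 control arrays, beside 50.4% of the named genes. They make up 743 of the 1000 brightest transcript clusters of these arrays and all 30 of the 30 brightest, so the brightest named genes are not the brightest signals of the cells. Their identity was not analysed here.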

How the results depend on the processing

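Genes above background numbered 5671 to 9975 under the other background levels, normalizations and summaries, beside 7498, and 7561 to 7708 with 1 array left out. Genes near background numbered 4164, beside 6619, with the median of all transcript clusters of each array as the threshold, and 6271 to 8596 under the other settings, and 6650 to 6844 with 1 array left out. The background levels from receptor genes could not be run. The 90th and 99th percentile of the genes of other organs, and the keratin-associated protein genes as background, were chosen after seeing the data. List members above background numbered 186 to 321, beside 228 of 425 measured, and 229 to 233 with 1 array left out. Basal and stratified keratins above background numbered 1 and not 4 at the 99th percentile and with the keratin-associated protein genes, and KRT14 then was no longer above on every array. Receptor tyrosine kinases numbered 12 with the keratin-associated protein genes and 30 with the array median, and transcription factors of other lineages 2 and 20. With the array median, 7 mesenchymal and 12 luminal and hormone response genes were above, and ESR1 and NRAD1 passed on some arrays. The median SD of 0.130 was 0.113 over genes above background and 0.124 as 0.5 times the range. With 1 array left out it was 0.0946 without replicate 3, 0.0972 without replicate 1 and 0.126 without replicate 2. An SD over 2 arrays tends to be lower than one over 3, so these values do not compare directly with 0.130. Of the 30 brightest genes, 25 to 30 were shared with every other setting. As the mean over its transcript clusters, KRT18 had 8.17 and VIM had 6.50. No paired analysis was possible because no groups were compared.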

Other observations

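Of 15 S100A genes, which encode small calcium-binding proteins, 11 (73.3%) were above background, beside 50.4% of all named genes. S100A14 (10.66, 10.54 and 10.33), S100A7 (10.47, 10.34 and 10.09), which encodes psoriasin, and S100A9 (9.23, 9.15 and 8.88) were the brightest, each highest on replicate 1 and lowest on replicate 3. S100A8, the partner of S100A9, had a mean of 8.01. Of 9 metallothioneins, 3 (33.3%) were above background, MT1X (10.09), MT2A (8.75) and MT1F (8.67). The other 6 metallothioneins, from MT1E (4.52) to MT1L (2.01), were near it. Genes of this family are similar in sequence, so their signals may be shared between members.

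Of 23 small nucleolar and Cajal body RNAs, 16 (69.6%) were above background, beside 50.4% of all named genes. SCARNA22 (9.12), SCARNA9 (9.03) and SCARNA12 (8.87) led them, and SCARNA14 (2.78) was the dimmest of the 23. Among microRNA precursors the brightest loci were MIR4737 (9.70), MIR574 (9.14) and MIR3689A (8.80).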
